A study of Mus musculus with 19 samples.

Results

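The cells described here were 937 Pdgfra-expressing fibroblasts of the injured mouse hind limb that carried markers of an activated state, out of 30185 cells in the 12 libraries to which the rule was applied and 39541 cells in all 19 libraries. Members were chosen by their own counts of UMIs (unique molecular identifiers, 1 for each captured mRNA molecule). Each barcode needed 500 detected genes or more, a mitochondrial share of UMIs no higher than 25%, at least 1 UMI of Pdgfra (the receptor of platelet-derived growth factor that marks fibroblasts), at least 1 UMI of 2 or more of Lrrc15, Crabp1 and Kif26b, no UMI of Pi16, Gzme or Tnmd, and at most 1 UMI of Ptprc, the pan-leukocyte gene. The values of those 8 genes, and of Tnc, which was named with the label, are therefore given as descriptions with no test.

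Activated fibroblasts arise in injured connective tissue, where they lay down and crosslink collagen and can build the contractile actin cytoskeleton that defines a myofibroblast. LRRC15 is a leucine-rich repeat membrane protein known from fibroblasts exposed to TGF-β, CRABP1 binds retinoic acid in the cytoplasm, KIF26B is a kinesin-family protein that acts downstream of Wnt5a and Ror receptors, and tenascin-C (Tnc) is a matrix glycoprotein of healing tissue. In heterotopic ossification (HO) bone forms in soft tissue after trauma by way of a cartilage template, and mesenchymal cells of the injury site are its source.

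HO was induced by a dorsal scald burn with transection of the Achilles tendon, and cells of the tenotomy site were profiled by droplet 3′ single-cell RNA sequencing. The libraries were 4 of day 7 after injury, 4 of day 7 with p7N3 and 4 of day 21. p7N3 is a peptide that activates CD47, injected intraperitoneally at 10 mg/kg daily for 3 days before and 3 days after injury, and the other day 7 mice received vehicle. The study describes young adult male C57BL/6J mice, while the labels name both C57 mice and LysmCre/Tgfb1fx/fx mice (a Cre driver of myeloid cells with a floxed Tgfb1) for the study and do not say which library came from which. The labels of p7N3 replicate 4 give no day. Replicates were meant by the study to capture differences between animals. No source used here states how many mice made up a library or ties a library to a mouse, so p-values measure the spread between these libraries, which may be partly technical. The files held 33845439 to 40384284 UMIs per library at day 7, 25652986 to 35649711 with p7N3 and 11205709 to 29424101 at day 21. Any 2 libraries shared at most 22 cell barcodes.

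Nearly all members also expressed Tnc and fibroblast genes that the rule did not read. Of the 937 members, 907 had a UMI of Tnc. In the 919 members of the 8 day 7 libraries, Tnc was detected in 97.1% of cells, and still in 78.6% after each cell was thinned to 3000 UMIs, against 44.2% of other Pdgfra cells, 32.4% of Pi16 cells and 6.39% of leukocytes (at least 2 Ptprc UMIs and no Pdgfra) at the same depth. In the Gzme-positive Pdgfra cells it was detected in 79.4%. Prrx1, a transcription factor of limb mesenchyme, was found in 90.4% of members before thinning. The most abundant messages of the members were those of matrix-producing cells: Col1a1 averaged 15153 ± 2585 CPM (counts scaled to equal library size; SD, n = 8 libraries), Col1a2 11002 ± 2162, Sparc 10913 ± 1775 and Col3a1 10867 ± 2062, with Malat1, a nuclear noncoding RNA, second at 11437 ± 3936. A 3′ UMI count carries no length term, so these levels could be set side by side.

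The chosen markers were unequal within the members. Lrrc15 had a UMI in 917 of them, Crabp1 in 651 and Kif26b in 602. Lrrc15 with Crabp1 qualified 335 cells, Lrrc15 with Kif26b 286, Crabp1 with Kif26b 20, and all 3 markers were present in 296. Lrrc15 was thus detected in nearly all members. The rule asked for 2 of the 3 markers, so these counts follow in part from it. Kif26b had a median of 1 UMI in the 919 day 7 members, so a cell without a UMI may still have expressed it. Across libraries Lrrc15 was even, from 220 to 413 CPM (mean 300 ± 63.5, SD, n = 8). Crabp1 ranged from 118 CPM in day 7 replicate 1 to 874 CPM in day 7 replicate 2, which are replicates of 1 group. Cell by cell, the 92 of 919 day 7 members with most Crabp1 held 60.01% of its UMIs and 1 cell had 208, while the 92 with most Lrrc15 held 30.2% of Lrrc15 UMIs.

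Just inside the rule, 51 members had 2 markers at 1 UMI each, and just outside it, 659 otherwise like cells had 1 marker and 860 had none. These 1519 are called other Pdgfra cells. The excluded genes kept out a similar number of cells. Of 2403 Pdgfra cells with 2 or more markers, 626 were left out by Tnmd alone (tenomodulin, a tendon membrane protein), 232 of them by a single Tnmd UMI, 373 by Pi16 alone (a marker of adventitial fibroblasts), 48 by Gzme alone and 419 by 2 or 3 of these genes. Members were also deeper than their neighbours, with median UMIs per cell of 12695.5 in day 7 replicate 3 against 9670 in the other Pdgfra cells of that library, and 22437 against 10756 in day 7 replicate 1. A gate on detection favours deep cells, so shares and counts of called genes are also given with the gate applied to cells thinned to 3000 UMIs, called equal depth below.

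Members were present in all 8 day 7 libraries and nearly missing at day 21. Of Pdgfra cells, they made up 8.46%, 14.7%, 7.94% and 17.5% in day 7 replicates 1 to 4 and 20.6%, 8.05%, 9.0% and 15.5% in the p7N3 replicates. The p7N3 values lay within and around those of day 7 (13.3 ± 5.88% against 12.2 ± 4.70%, SD, n = 4 each; difference 1.12 percentage points, exact permutation test, 2-sided p = 0.714, adjusted p = 0.714 over 4 share tests). At day 21 the shares were 0%, 0.309%, 1.34% and 1.80%, from 0, 1, 4 and 13 cells, all below every day 7 value. For replicate 1, 0 members among 603 Pdgfra cells leaves room for a share of 0.498%, counting error only. The difference was −11.3 percentage points, with p = 0.0286 in the 2-sided exact permutation test, the smallest that 4 against 4 libraries can give, and adjusted p = 0.0571, which missed 0.05. Of all cells the members were 3.62 ± 1.41% at day 7, 3.98 ± 1.89% with p7N3 (exact permutation adjusted p = 0.714) and 0.300 ± 0.302% at day 21 (exact permutation adjusted p = 0.0571). At equal depth the day 7 shares were smaller and the day 21 difference narrower. Of Pdgfra cells, members were 5.55 ± 2.90% at day 7 and 1.1 ± 1.04% at day 21 (difference −4.45 percentage points). The day 21 mean had been 0.863 ± 0.849% before thinning, so that share was not smaller. Of all cells, members were 0.684 ± 0.260% at day 7 and 0.177 ± 0.151% at day 21 (difference −0.507). Both comparisons had no overlap and an exact permutation adjusted p of 0.0571.

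**Figure D1:**
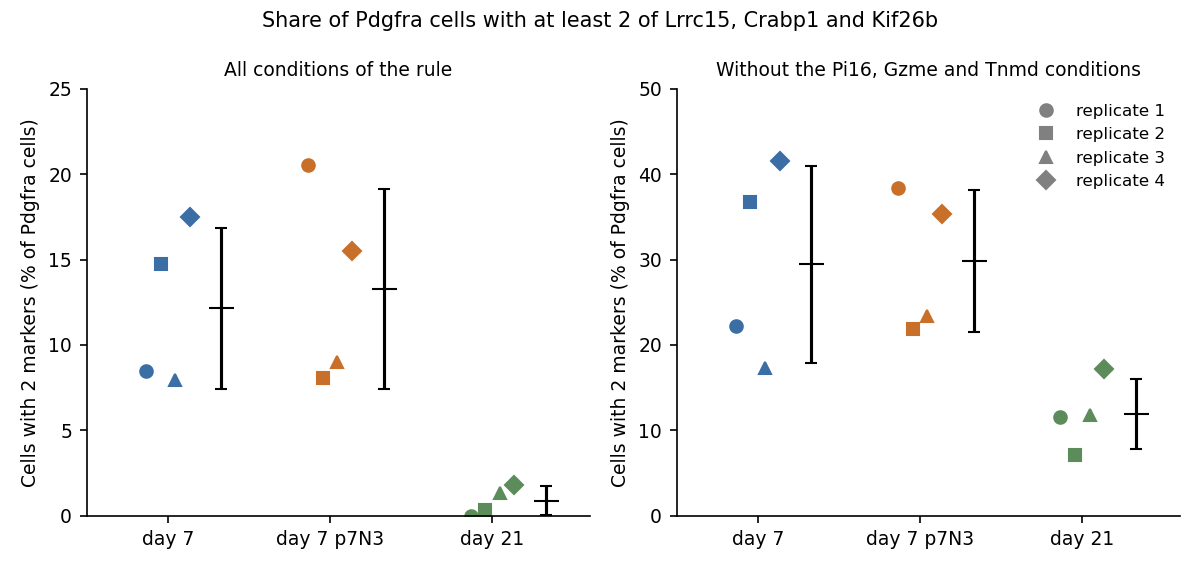
Percent of Pdgfra cells in each library that had at least 2 of the 3 markers, with all conditions of the rule (left) and without the conditions on Pi16, Gzme and Tnmd (right); symbols mark replicate numbers and bars the mean ± SD of 4 libraries. Day 21 libraries lie below all day 7 libraries in both panels, from 0 to 1.80% on the left, but at a mean of 11.9% on the right.

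The near absence at day 21 rested on the excluded genes as well as the markers. Tnmd was present in 52.6% to 69.5% of day 21 Pdgfra cells and 32% to 48% of day 7 Pdgfra cells, and in leukocytes, which should lack it, in 22.8% at day 21 against 5.96% at day 7. Pi16 was likewise found in 23.5% of day 21 leukocytes and 11.1% of day 7 leukocytes. The part of this background in the exclusions was not tested. Without the 3 exclusions, a setting chosen after seeing the data, cells with 2 or more markers were 29.5 ± 11.5% of Pdgfra cells at day 7, 29.8 ± 8.32% with p7N3 and 11.9 ± 4.12% at day 21 (difference −17.6 percentage points; exact permutation p = 0.0286, adjusted p = 0.114). As a share of all cells they were 8.74 ± 3.40% at day 7 and 4.28 ± 1.6% at day 21, and the groups overlapped (difference −4.46 percentage points; exact permutation p = 0.0857, adjusted p = 0.171). Of the 252 such cells at day 21, 18 were members and 139 carried 2 or 3 of the excluded genes.

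Members were next compared with other Pdgfra cells of the same libraries, summed per library, in the 9 libraries with at least 10 cells of both kinds. edgeR's quasi-likelihood test with library as a block called 1506 genes higher (15.6% of 9629 tested) and 1567 lower (16.3%) at a Benjamini-Hochberg adjusted p below 0.05, and when gate and test used separate random parts of each cell's UMIs it called 1892 in all. With the gate at equal depth it called 962. Sums of members then held fewer cells (15 against 73 in day 7 replicate 1), while those of other Pdgfra cells mostly held more (185 against 140 there). The other Pdgfra cells held more RNA of other cell types. The summed level of 10 macrophage markers had a median of 529 CPM in members (lowest 424, highest 915, n = 8) and 1983 CPM in other Pdgfra cells, and all 10 were lower in members. Lyz2 was their most abundant gene, with 4631 UMIs. Endothelial markers summed to a median of 33.4 against 185 CPM, mural cell markers to 38.1 against 178 and adipocyte markers to 44.6 against 169. Sox10 had 0 UMIs in the 919 members, and Krt5, Krt14, Dsp, Adipoq, Plin1, Cidec, Cd3e, Pln and Myh4 had at most 10 each. The part of these messages in the other calls was not tested.

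Contractile genes were higher in members. Of 11 tested genes of the list, 9 were higher and 1 was lower than in other Pdgfra cells, against 15.6% higher and 16.3% lower over all genes. The median log2 fold change was 1.16, against −0.0016 over all genes. Acta2, smooth muscle α-actin, stood at 2540, 2647, 1345 and 2361 CPM in the members of day 7 replicates 1 to 4, at 3339, 2708, 1865 and 1412 with p7N3, and at 834 in day 21 replicate 4. In the other Pdgfra cells it stood at 472, 714, 485 and 458 CPM at day 7, at 1224, 734, 612 and 392 with p7N3, and at 927 in day 21 replicate 4. All 8 day 7 libraries were higher in members, with no overlap between the sets, and the day 21 library, with 13 members, was not (log2 fold change 1.68, SE 0.247, adjusted p = 0.00104, edgeR). Tagln, an actin crosslinker, was at 851 ± 310 against 343 ± 142 CPM (SD, n = 9; log2 fold change 1.35). Tropomyosin genes Tpm1 (1021 ± 194 against 454 ± 74.5 CPM, log2 1.16, adjusted p = 1.99e-12) and Tpm2 (log2 1.19), and calponin Cnn2 (log2 1.06), were higher in 9 of 9 libraries. Mylk, myosin light chain kinase, was lower at 24.3 ± 9.87 against 46.2 ± 21.1 CPM (log2 −0.71, adjusted p = 0.0332).

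At 3000 UMIs per cell Acta2 was detected in 79.3% of members, 31.6% of other Pdgfra cells, 23.5% of Pi16 cells and 13.3% of leukocytes. It was spread unevenly among members, with a median of 26 UMIs, a maximum of 438, and 40.3% of its UMIs in the 92 cells with most, against 19.2% for Col1a1. Serum response factor drives many contractile genes through the CArG box. Of the 12 genes of the list, 10 had a RefSeq promoter (300 bases, 250 before and 50 after the start site, GRCm38.p6), and 2 of them, Myl9 and Cnn2, held a CArG box on either strand, against 1.63% of 32851 promoters. Both genes were higher in members (Myl9 log2 1.00), and the stretch around each box is shown with the box in capitals, for chr2:156775278-156775337 and chr10:79988519-79988578, both on the plus strand.
Myl9: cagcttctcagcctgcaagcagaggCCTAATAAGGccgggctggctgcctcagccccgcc
Cnn2: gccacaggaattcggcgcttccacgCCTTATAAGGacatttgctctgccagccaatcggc
These matches are a description of the letters and not of a bound site.

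**Figure D2:**
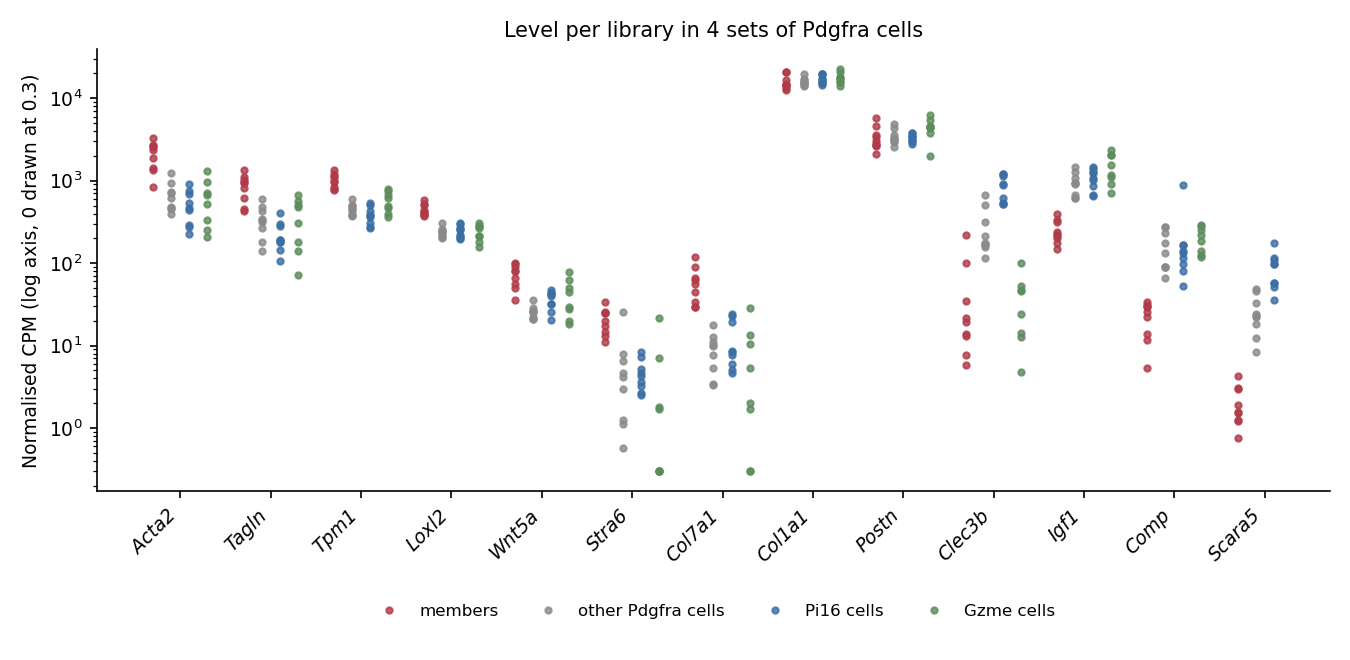
Normalised CPM (log axis; 0 drawn at 0.3) of 13 genes in each library's members, other Pdgfra cells, Pi16 cells and Gzme cells, 1 point per library, each set from its own fit; Scara5 was not tested against Gzme cells. Within each day 7 library members lie above the other sets for Acta2, Tpm1 and Loxl2 and below other Pdgfra cells for Igf1, Comp and Scara5, while their Col1a1 and Postn overlap those of other Pdgfra cells.

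Type I collagen was close in members and other Pdgfra cells, while most genes that process collagen were higher in members. Col1a1 was at 15800 ± 3040 CPM in members and 15912 ± 1768 CPM in other Pdgfra cells (SD, n = 9; log2 −0.02, SE 0.0765, edgeR adjusted p = 0.848). Postn (periostin; log2 −0.05, SE 0.142) and Cthrc1 (log2 −0.01, SE 0.0731) also missed the threshold, and Col3a1 was lower (log2 −0.39, adjusted p = 0.00193). Of 13 collagens 5 were higher, among them Col12a1 (692 ± 149 against 420 ± 135 CPM, log2 0.74), Col5a3 (log2 0.62) and Col6a3 (log2 0.46), and 2 were lower, Col14a1 by −1.27 and Col3a1. Over all genes 15.6% were higher and 16.3% lower. Col7a1, the anchoring fibril collagen, had one of the largest differences of all, at 59.0 ± 30.0 against 9.06 ± 4.72 CPM (log2 2.52, SE 0.292, adjusted p = 0.000148). Of 14 processing genes 9 were higher and 1 lower (median log2 0.31). Loxl2, a lysyl oxidase that crosslinks collagen, was at 448 ± 73.6 against 241 ± 31.4 CPM (log2 0.88, adjusted p = 8.76e-10), higher in 9 of 9 libraries. Loxl3 (log2 0.60), the prolyl hydroxylase P4ha1 (log2 0.52) and the collagen chaperones Serpinh1 and Fkbp10 were also higher, and the lysyl hydroxylase Plod2 was lower (log2 −0.37).

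Other matrix genes were called in both directions, against 15.6% higher and 16.3% lower over all genes. Of 16 matricellular and microfibril genes 3 were higher, namely the thrombospondins Thbs1 (log2 0.53) and Thbs2 (log2 0.66) and Fbln2, and 4 were lower, namely Eln (elastin, log2 −1.85), Lum, Dcn and Aspn. Of 16 proteases and inhibitors, Mmp11 (log2 0.77), Mmp14 and Adam12 were higher, and 5 were lower, including Mmp2 (666 ± 180 against 1118 ± 319 CPM, log2 −0.74). Thrombospondin-1 is a ligand of CD47. Cd47 itself stood at 292 ± 48.3 CPM in members and 307 ± 28.3 CPM in other Pdgfra cells (log2 −0.09, SE 0.0565, adjusted p = 0.255), and Sirpa, its counter-receptor, was lower (35.8 ± 4.86 against 58.0 ± 5.48 CPM, log2 −0.69).

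Of the 12 Wnt genes tested 5 were higher and 4 lower, against 15.6% higher and 16.3% lower over all genes. Among them were Wnt5a, a noncanonical ligand, on the higher side and some secreted inhibitors on the lower. Wnt5a was at 49.5, 98.7, 35.5 and 67.0 CPM in the members of day 7 replicates 1 to 4, at 81.1, 56.0, 89.7 and 102 with p7N3 and at 80.5 in day 21 replicate 4, against 21.2 to 35.7 CPM in other Pdgfra cells. Each library's members were above its other cells (log2 1.5, SE 0.187, adjusted p = 0.000134). Ror2, a Wnt5a receptor, was at 29.1 ± 5.95 against 16.6 ± 3.16 CPM (log2 0.80, adjusted p = 1.24e-05), and Wnt5b, Fzd2 and Lgr5 were also higher. Sfrp4 (log2 −3.06), Sfrp2 (332 ± 148 against 705 ± 228 CPM, log2 −1.12), Sfrp1 and Dkk2, all secreted Wnt antagonists, were lower, and Dkk3 was not called (log2 −0.20, adjusted p = 0.122). The median of the list was −0.10.

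BMP genes, which govern cartilage and bone formation, also split by role. The antagonist Grem1 (12.0 ± 8.04 against 3.42 ± 2.65 CPM, log2 1.77, adjusted p = 0.0109) was higher, as were the receptors Bmpr1b and Bmpr2. Of the 14 tested, 7 were lower, namely the ligands Bmp2 (log2 −1.68) and Gdf10 (log2 −1.90), the antagonist Chrdl1, the pseudoreceptor Bambi, and the BMP targets Id1 (7.40 ± 2.31 against 27.3 ± 11.2 CPM, log2 −1.81), Id2 and Id3. Against Pi16 cells Id1 was not called (log2 −0.22, adjusted p = 0.291), and Id2 (log2 −0.93) and Id3 (log2 −0.89) were lower. Calls among the 16 TGF-β genes were 3 higher and 4 lower, against 15.6% higher and 16.3% lower over all genes. The ligand Tgfb2 (94.9 ± 22.3 against 63.5 ± 15.4 CPM, log2 0.57), the target Tgfbi (log2 0.40) and the inhibitor Smad7 were higher, and the latent binding proteins Ltbp1, Ltbp3 and Ltbp4 (log2 −1.70) and the co-receptor Tgfbr3 were lower. Tgfb1 was at 74.2 ± 22.2 against 71.7 ± 6.91 CPM and missed the threshold (log2 −0.03, adjusted p = 0.805).

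Retinoid genes other than Crabp1 gave 2 higher and 2 lower of 12 tested (median −0.19), which is near the shares over all genes (15.6% higher and 16.3% lower). Stra6, the retinol uptake receptor, was at 13.0, 14.8, 24.7 and 19.8 CPM in members at day 7, at 24.7, 25.9, 17.5 and 11.1 with p7N3 and at 33.9 in day 21 replicate 4. The other Pdgfra cells of the 8 day 7 libraries were at 0.581 to 8.01 CPM, below every member value, and those of day 21 replicate 4 at 25.5 (log2 2.12, SE 0.233, adjusted p = 1.69e-06). Aldh1a2, which makes retinoic acid, was lower (log2 −1.55, adjusted p = 0.0173), and so was the retinaldehyde reductase Dhrs3.

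Of the skeletal genes, some of cartilage, tendon and bone were lower and the master regulators were not called. Comp, a cartilage and tendon matrix protein, was at 5.37 to 33.6 CPM in the members of 9 libraries and at 66.9 to 274 CPM in other Pdgfra cells, with no overlap (log2 −2.79, SE 0.248, adjusted p = 4.00e-05). Matn4 (log2 −2.79) and Acan, the cartilage proteoglycan (63.5 ± 34.1 against 123 ± 53.4 CPM, log2 −1.09), were the other cartilage genes lower. That made 3 of 6 tested, against 16.3% lower over all genes. Sox9, the master regulator of cartilage, was at 56.3 ± 16.4 against 79.8 ± 14.5 CPM (log2 −0.44, adjusted p = 0.103), Runx2, that of bone, at 39.2 ± 7.51 against 31.8 ± 9.34 (log2 0.25, adjusted p = 0.0672), and the tendon factor Scx at 11.3 to 81.9 against 15.7 to 129 (log2 −0.47, adjusted p = 0.316). Of 5 tendon genes tested Fmod and Ecm2 were lower, and of 3 bone genes tested Mef2c and Spp1 were lower (median log2 −0.38). The paper also lists Spp1 among the top genes of a macrophage cluster, and other Pdgfra cells held more macrophage RNA than members. The part of that RNA in the Spp1 value was not tested. Against Pi16 cells Mef2c was lower, Runx2 was higher and Spp1 was not called.

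Genes of resting fibroblasts were lower in members. Of 13 tested, 12 were lower than in other Pdgfra cells, against 16.3% over all genes, with a median log2 of −1.28. Clec3b (tetranectin) was at 21.7, 34.9, 100 and 5.77 CPM in members at day 7, at 19.6, 13.3, 7.60 and 13.9 with p7N3 and at 220 in day 21 replicate 4. In the same libraries' other Pdgfra cells it was at 115 to 679 CPM, higher in 9 of 9 (log2 −3.12, SE 0.292, adjusted p = 6.86e-05). Scara5 was at 0.760 to 4.23 against 8.33 to 48.2 CPM (log2 −3.53), and complement C3 at 31.9 ± 18.0 against 171 ± 84.6 CPM (log2 −2.48). At 3000 UMIs per cell Clec3b was detected in 4.24% of members and 62.5% of Pi16 cells. Igf1 (251 ± 80.7 against 941 ± 292 CPM, log2 −1.93) and Igf2 (log2 −2.81), insulin-like growth factors, were lower, and the growth factors Pdgfc (log2 0.72) and Vegfc (log2 0.63) were higher.

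Some inflammatory genes and most immediate early genes were lower, and most genes of the cell cycle list were higher. Of 17 chemokines and cytokines 8 were lower, including Ccl11 (log2 −1.54) and Il6 (64.1 ± 53.8 against 130 ± 80.7 CPM, log2 −1.23), and 1 was higher, the neutrophil attractant Cxcl5 (1358 ± 885 against 642 ± 481 CPM, log2 1.13, adjusted p = 0.0416, in 9 of 9 libraries). Of 18 immediate early genes 11 were lower, including Atf3 (log2 −1.33) and Fos (log2 −0.44), and 5 of 10 interferon-stimulated genes were lower. Of 15 cell cycle genes 9 were higher, such as Birc5 (129 ± 28.0 against 81.8 ± 19.7 CPM, log2 0.63) and Mcm5 (log2 0.85). Mki67 was not called (log2 0.33, adjusted p = 0.151), and its detection was 21.5% of members against 11.3% of other Pdgfra cells, but 5.66% against 4.65% at equal depth. The glycolysis genes Gapdh (log2 0.60), Pgk1, Ldha and Aldoa were the 4 of 13 called in that list, all higher. Twist2, a limb mesenchyme transcription factor, was higher (71.8 ± 18.4 against 29.1 ± 8.77 CPM, log2 1.36), the only one of 13 limb positional genes, while Hoxd9 and Hoxa10 were lower. Over all genes 15.6% were higher and 16.3% lower, so the limb counts were near or below those shares.

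Over all genes, list members included, the largest called differences upward by the naming rule were Spock3, Col7a1, Stra6 and Prss35. Spats2l, Serpina3g, Wnt5a and F2rl1, the receptor PAR2, followed. Spock3, a testican proteoglycan, was at 27.3 ± 19.3 against 3.25 ± 2.96 CPM (log2 2.81). Prss35, a secreted protein of the serine protease family, was at 29.4 to 97.7 against 11 to 30.2 CPM (log2 2.03, in 9 of 9 libraries). Downward, the largest called differences were Cdh5, Scara5, Ntrk2 (a neurotrophin receptor, log2 −3.41), Fbln7, Clec3b, Sfrp4, Pecam1, Tnxb, Ccl19 and Igf2. Tnxb (tenascin-X) was at 10.2 ± 8.03 against 71.0 ± 39.7 CPM (log2 −2.87, edgeR adjusted p = 4.78e-13). Cdh5 (log2 −3.60) and Pecam1 (log2 −2.91) are endothelial. With the gate at equal depth, which leaves fewer cells in each sum of members, they had log2 values of −0.32 and −0.59 and were not called.

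**Figure D3:**
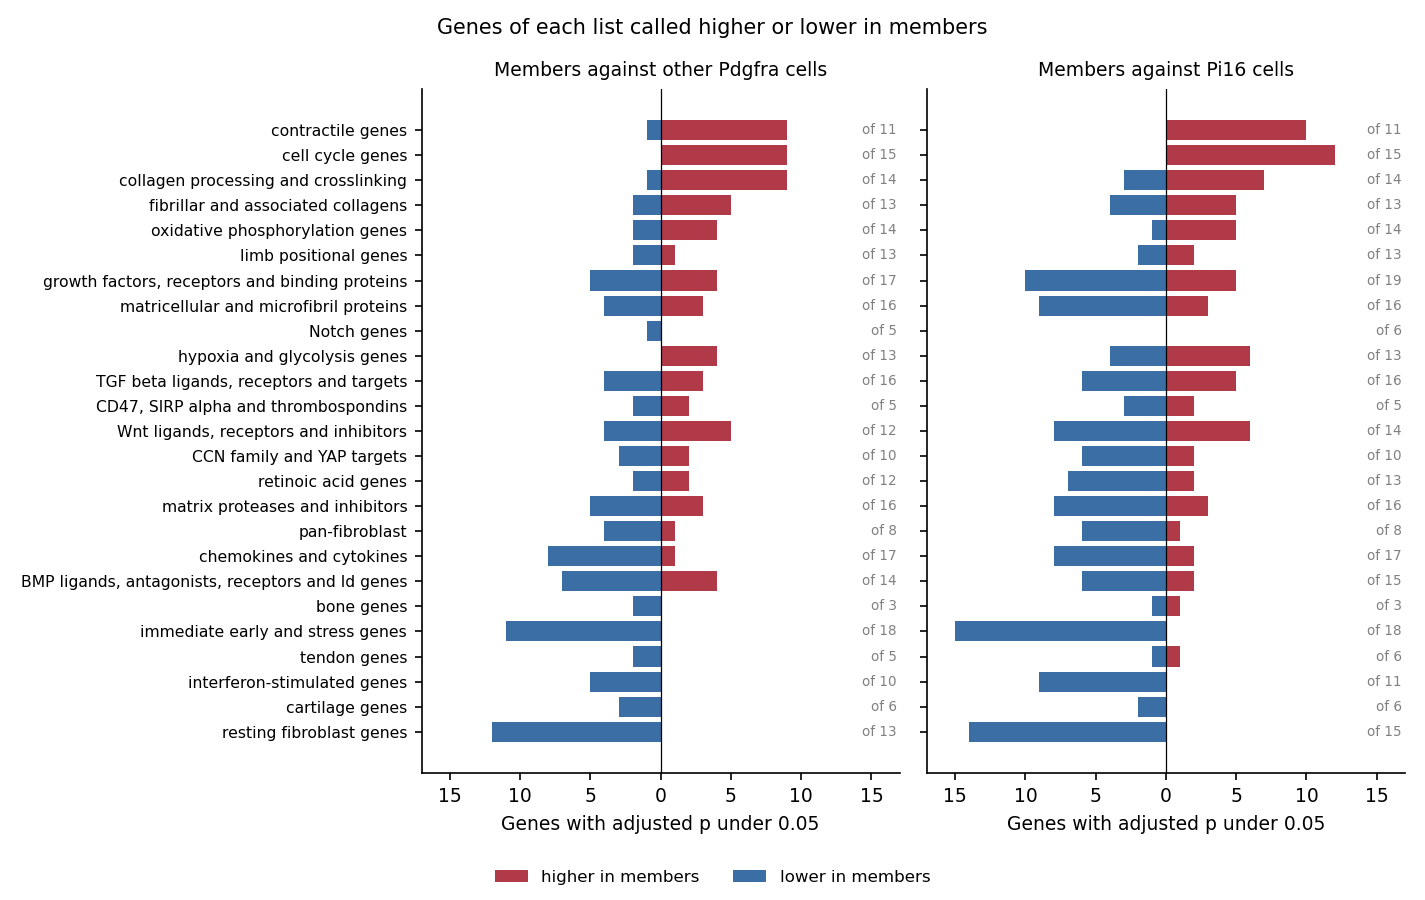
Number of genes of each list called higher (red, right) or lower (blue, left) in members than in other Pdgfra cells and than in Pi16 cells at an adjusted p below 0.05, with the number tested in grey. Contractile genes stand at 9 and 10 of 11 higher, and resting fibroblast genes at 12 of 13 and 14 of 15 lower.

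Against Pi16 cells, the 2629 Pdgfra cells with Pi16, 2041 genes were higher in members (19.5% of 10472 tested) and 2169 lower (20.7%). Of the other cell types' markers, none of 10 macrophage markers was called, while 4 of 5 endothelial markers (Cldn5, Cdh5, Pecam1 and Tie1; summed median 33.4 CPM in members and 139.7 CPM in Pi16 cells), 2 of 4 mural cell markers and 2 of 4 skeletal muscle markers were lower in members. Their part in the other calls was not tested. Of the contractile list 10 of 11 were higher (median log2 1.6) and none lower, led by Actg2 (log2 2.20), Acta2 (2070 ± 795 against 508 ± 233 CPM, SD, n = 9; log2 2.06, SE 0.197, adjusted p = 4.84e-05, edgeR) and Tagln (log2 1.92). Col3a1 (log2 −0.85), Col1a2 (log2 −0.38) and Col1a1 (log2 −0.17, adjusted p = 0.0381) were lower than in Pi16 cells, and of 14 collagen processing genes 7 were higher and 3 lower. Of the resting list 14 of 15 were lower (median −2.13): Myoc (log2 −6.31; 0.368 ± 0.447 against 42.4 ± 24.0 CPM), Scara5 (log2 −5.45) and Clec3b (log2 −4.92) led. Sfrp4 (log2 −4.39), Tnxb (log2 −4.60), Ntrk2 (log2 −4.50) and Lbp, the LPS-binding protein (13.7 ± 5.49 against 283 ± 83.8 CPM, log2 −4.29), were further named genes on the lower side. Wnt5a (log2 0.98), Stra6 (log2 2.09) and Loxl2 (log2 0.82) were higher here too, in a comparison that uses the same members. Of the 14 Wnt genes tested 6 were higher, Dkk3 among them (log2 0.28), and 8 were lower, including the noncanonical ligand Wnt11 (log2 −0.81) and the receptor Ror1 (log2 −0.72) beside the Sfrp genes. Of the cell cycle list 12 of 15 were higher, here with Mki67 (log2 0.67). Tgfb1 (log2 0.43), Tgfb3 (log2 0.24) and Inhba were higher and the receptors Tgfbr1, Tgfbr2 and Tgfbr3 lower. Runx2 was higher (log2 0.38, adjusted p = 0.0028), and Cd47 was lower by a small amount (log2 −0.19, adjusted p = 0.00827).

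Gzme cells, 214 Pdgfra cells of the day 7 libraries with transcripts of granzyme E, were the set nearest to members in the detection of Tnc, and 454 genes were higher in members (6.06% of 7487 tested) and 583 lower (7.79%). Of the contractile list 10 of 11 were again higher (median log2 1.00), with Acta2 at 2201 ± 672 against 623 ± 382 CPM (SD, n = 8; log2 1.99, adjusted p = 7.47e-05, edgeR). Other named genes higher in members were the transcription factor Sox11 (20.8 ± 5.63 against 6.37 ± 7.76 CPM, log2 1.83), the β-tubulin Tubb3 (log2 1.79), the semaphorin Sema7a (log2 1.73) and Prss35 (log2 1.72). Cartilage genes were lower in members, 5 of 5: Comp (21.4 ± 10.2 against 202 ± 70.6 CPM, log2 −3.33), Matn4 (log2 −3.38), Acan (log2 −1.80), Col11a1 and Sox9 (log2 −1.12, adjusted p = 0.0119). Runx2 was lower as well (log2 −0.70, adjusted p = 0.00263). The granzymes Gzmd (0.653 ± 0.513 against 78.6 ± 36.4 CPM, log2 −6.42) and Gzmc (log2 −4.57), of the same gene family as Gzme, were lower in members, and since near-identical members of the family can share reads, their separate values are uncertain. Gas6, a ligand of TAM receptors, was at 119 ± 60.5 against 1103 ± 574 CPM (log2 −3.18), and the water channel Aqp5 (log2 −3.49), Vtn (vitronectin, log2 −3.09) and Igf2 (log2 −3.08) were also lower. Of 8 macrophage markers tested, Fcer1g and Lyz2 were higher in members (median log2 of the list 0.37), and the list summed to a median of 529 CPM in members and 373 CPM in Gzme cells; its part in the other calls was not tested. The Gzme sums held 17 to 43 cells per library.

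Members were also split by which markers were detected in them, and levels are given with no test since markers chose the classes. A marker at a low level can go undetected, so the classes need not be separate kinds of cell. Over the 8 day 7 libraries, median Acta2 was 1777 CPM in cells with Lrrc15 and Crabp1, 1931 CPM with Lrrc15 and Kif26b and 3266 CPM with all 3. The order was not the same in each library: with all 3 markers Acta2 was below the Lrrc15 and Kif26b cells in day 7 replicates 1 and 3 and p7N3 replicate 1, and over pooled cells these classes stood at 2931 and 2727 CPM. Comp was at a median of 27.6, 32.9 and 5.24 CPM in that order, and the cells with all 3 were lowest in each of the 8 libraries. Those cells held 33 Comp UMIs in all, so the order within a library rests on few UMIs. Wnt5a was at 67.7, 31.7 and 102 CPM, Postn at 2480, 4018 and 2726 CPM, and Acan at 85.6, 60.3 and 26.7 CPM. Scx was at 45.7, 53.6 and 17.2 CPM. Among single members, the 92 cells with most of a message held 36.7% of Tnc UMIs, 46.8% of Tagln, 76.6% of Mki67, 79.8% of Acan and 85.6% of Scx.

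**Figure D4:**
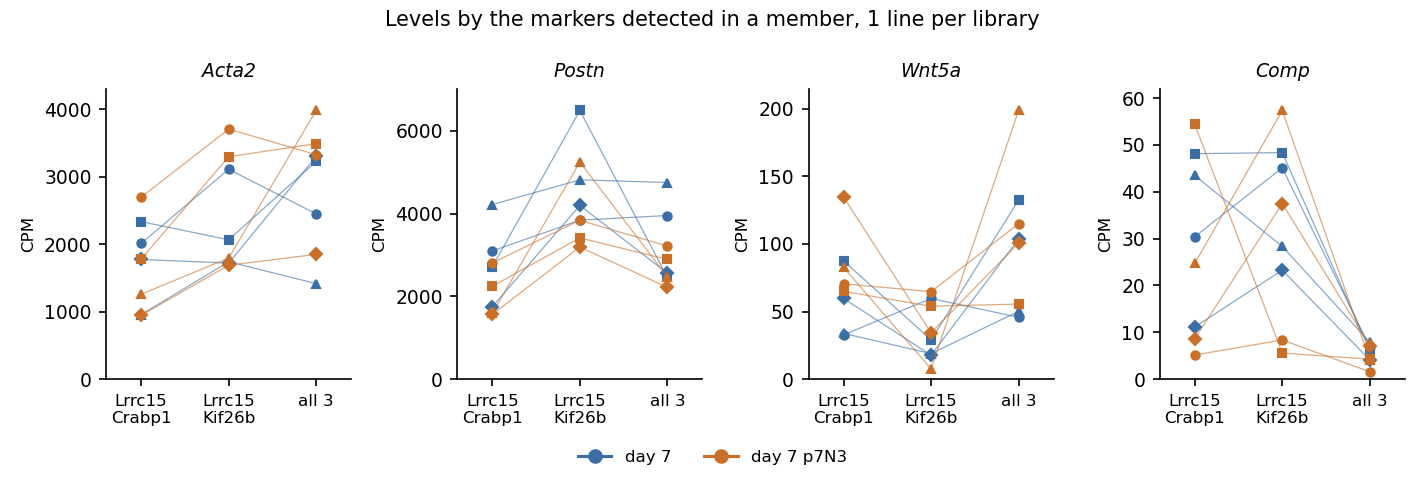
CPM of Acta2, Postn, Wnt5a and Comp in members with Lrrc15 and Crabp1, with Lrrc15 and Kif26b, or with all 3 markers, 1 line per day 7 library (blue, vehicle; orange, p7N3; symbols mark replicate numbers). Comp is lowest with all 3 markers in each library, with a median of 5.24 CPM, but from 33 UMIs over all 8 libraries.

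Day 7 members with and without the peptide were compared over 4 libraries each, with 1329040 to 3931020 member UMIs per library. edgeR called 0 genes higher (0% of 9926 tested) and 1 lower (0.0101%), and 606 had an unadjusted p below 0.05. The gene was Lurap1l, an adaptor-like protein of little known function. Its levels were 36.6, 56.6, 31.4 and 47.6 CPM at day 7 and 15.5, 19.9, 16.5 and 16.4 CPM with p7N3, and the groups did not overlap (log2 −1.39, SE 0.191, adjusted p = 0.0491). The call was lost in 12 of 21 alternatives, for example without p7N3 replicate 4 (adjusted p = 0.206) and in replicates 1 to 3 alone (log2 −1.31, adjusted p = 0.344), and in none did its sign change. Lurap1l was also at 19.1 against 36.6 CPM in other Pdgfra cells (log2 −0.93, adjusted p = 0.097) and 22.1 against 39.6 CPM in Pi16 cells (log2 −0.83, adjusted p = 0.0953). DESeq2 called 22 genes. On simulated counts of this comparison the edgeR test recovered 95% of 200 genes changed 2-fold. The simulation changed only genes of at least 20 CPM and gave each gene the spread usual at its level. It therefore does not speak for genes at lower levels or genes that vary more between libraries.

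Some other genes of the lists had groups that did not overlap but missed the threshold. Ctgf, the matricellular protein CCN2 and a TGF-β and YAP target, was at 126, 121, 110 and 109 CPM at day 7 and 31.3, 36.9, 64.7 and 25.8 CPM with p7N3 (log2 −1.62, SE 0.229, edgeR adjusted p = 0.111). Tgfb3 was at 95, 67.7, 95 and 88.7 against 55.6, 56.8, 56.4 and 48.8 CPM (log2 −0.67, adjusted p = 0.225). Twist2 was at 52.2, 62.8, 52.1 and 49.9 against 87.7, 90.6, 97.8 and 79.0 CPM (log2 0.70, adjusted p = 0.112). In each of these 3 genes the groups did not overlap, as in 394 of the 9926 genes (3.97%). Fmod, fibromodulin, had a log2 of −0.95 (adjusted p = 0.225). Il11, a cytokine induced by TGF-β, was at 4.6 to 10.1 against 15 to 114 CPM (log2 2.68, adjusted p = 0.655), while Cxcl2, at 84.4 to 258 against 170 to 472 CPM, overlapped (log2 1.15, adjusted p = 0.806).

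By list, the 17 chemokines and cytokines had a median log2 of 0.76 with p7N3 and none called, against 0.0027 over all genes, and the 6 tendon genes a median of −0.75 with none called. Granulocyte markers in members had a summed level with a median of 120.2 CPM at day 7 (49.2 to 199.5) and 257 CPM with p7N3 (139.8 to 413), and the groups overlapped. S100a8 was the most abundant of the 5 markers in members, and the 2 that were tested had a median log2 of 1.15 with none called. The part of granulocyte RNA in the chemokine values was not tested. Contractile genes had a median of −0.01: Acta2 was at 2323 ± 861 CPM with p7N3 and 2221 ± 601 CPM without (log2 0.06, SE 0.325, adjusted p = 0.998). Lrrc15 (286 ± 86.9 against 313 ± 37.2 CPM), Crabp1 (327 ± 175 against 417 ± 322), Kif26b and Tnc (1010 ± 133 against 1158 ± 215) overlapped between the groups. Cd47, the peptide's target, had a log2 of 0.15 (SE 0.125, adjusted p = 0.909) and was not called. None of 6 cartilage genes (median log2 −0.17) or 3 bone genes (median log2 0.10) was called. Acan was at 21.9 to 63.4 CPM with p7N3 and 60.9 to 93.5 CPM without (log2 −0.98, adjusted p = 0.657), Comp had a log2 of −0.69 (adjusted p = 0.909) and Col11a1 of −0.48 (adjusted p = 0.806), while Sox9 (log2 0.54, adjusted p = 0.643) and Runx2 (log2 0.34, adjusted p = 0.806) had positive values. Haemoglobin message, a product of red cells, was high in 2 day 7 libraries, with Hbb-bs at 970 and 1975 CPM in replicates 1 and 3; its part in the comparison was not tested. A test of whether the peptide's effect differed between members and other Pdgfra cells called 0 of 10512 genes in edgeR (439 at unadjusted p below 0.05, smallest adjusted p 0.450), and 0 of 11174 against Pi16 cells (516 at unadjusted p below 0.05, smallest adjusted p 0.327).

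**Figure D5:**
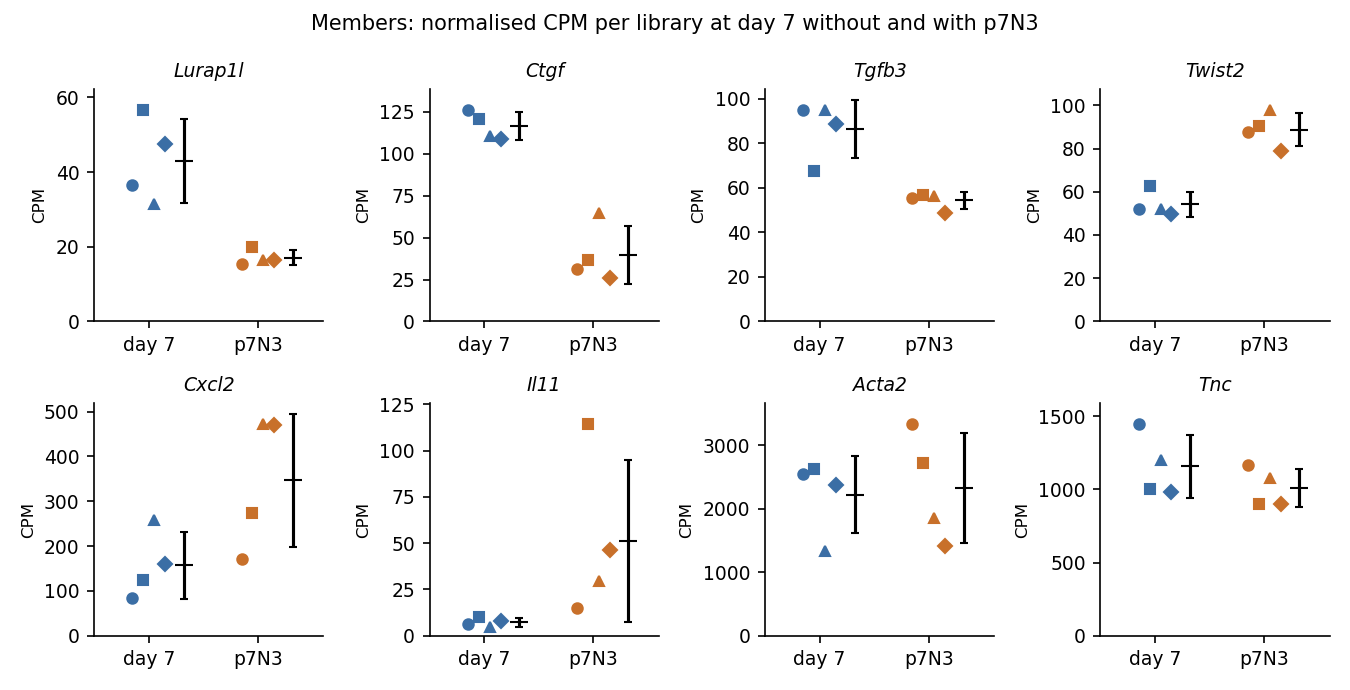
Normalised CPM of 8 genes in the members of each day 7 library without (blue) and with p7N3 (orange), with mean ± SD of 4 libraries beside the points. Lurap1l, Ctgf, Tgfb3 and Twist2 do not overlap between groups, of which Lurap1l passed the test (adjusted p = 0.0491), and Acta2 and Tnc overlap.

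At day 21 the comparison had 1, 4 and 13 members in 3 libraries, with 11002, 125127 and 240913 UMIs, and the day 7 libraries are those of the peptide comparison. edgeR called 51 genes higher (0.586% of 8703 tested) and 23 lower (0.264%), and the median log2 over all genes was −0.13. The count was 32 without day 21 replicate 2, which had 1 cell, 46 without replicate 3, 140, 124, 216 and 118 without day 7 replicates 1 to 4 in turn, and 100 in replicates 1 to 3 alone; with all 3 markers required it was 75, but with 9 genes higher and 66 lower, and 7 genes shared with the 74. On counts simulated in the same way for this comparison, 9% of 2-fold changes were recovered. Spon1, the matrix protein spondin-1, was at 154, 113, 149 and 104 CPM at day 7 and 256, 683 and 488 CPM at day 21 (log2 2.03, SE 0.271, adjusted p = 4.58e-06). Tmem100, a BMP-responsive membrane protein (log2 1.98), Mmp2 (604 to 799 against 1212 to 2169 CPM, log2 1.28, adjusted p = 0.0162), the Wnt regulator Dkk3 (log2 1.58) and the latent TGF-β binding protein Ltbp4 (log2 1.79) were higher in all 3 day 21 libraries than in any day 7 library, as groups did not overlap in 20.7% of the 8703 genes.

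On the lower side, Acta2 was at 2815, 2880, 1468 and 2587 CPM at day 7 and 205, 1054 and 915 CPM at day 21 (log2 −1.58, SE 0.355, edgeR adjusted p = 0.0146), and Actg2 was lower with it (log2 −2.64, adjusted p = 0.000793), 2 of 11 contractile genes. The imprinted RNA H19 (log2 −2.68, but 1.43 with the gate at equal depth), the crosslinker Loxl3 (log2 −1.59), Cyr61 (log2 −1.51) and Cdk1 (log2 −1.89) were also lower. Macrophage genes Lyz2 (214 to 460 against 34.6 to 51.3 CPM, log2 −2.84) and Fcer1g were lower too, in a marker list with a median of −2.38. Their part in the other calls was not tested. The low day 21 values of these genes rest on few UMIs, so their folds are uncertain. Replicate 2 in particular was 1 cell of 11002 UMIs with a TMM factor of 1.77. Mural cell markers summed to 327.9 CPM in day 21 replicate 4, 24 CPM in replicate 3 and 181.8 CPM in the single cell of replicate 2, against 23.8 to 44.5 CPM at day 7; the 2 that were tested had a median log2 of 2.28 and were not called, and their part in the other calls was not tested either. Prg4, lubricin, was at 156 to 500 CPM at day 7 and at 0, 8.64 and 4.65 CPM at day 21, which is too few UMIs for a fold. Clec3b was at 6.32 to 110 against 242 to 449 CPM but was not called (adjusted p = 0.365), and of 12 resting fibroblast genes 1 was higher, Ly6c1 (log2 1.49, median of the list 1.12).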

How the data were processed

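The deposited files hold UMI counts per gene and barcode, made by the authors from 10x Genomics 3′ libraries. The submitters' processing notes name Cell Ranger and Seurat, and give GRCh38 for replicates 1 to 3 and mm10 for replicate 4 of each group, while the gene identifiers are those of mouse throughout, so no gene coordinates of the files are given; promoters are those of RefSeq on GRCm38.p6. Counts were used as deposited. Libraries were grouped by their titles. The members and the gene lists were chosen with earlier results of these data known. Counts of each cell set were summed per library, and sums of fewer than 10 cells were left out of the comparisons between sets but kept at day 21. Genes passing edgeR's expression filter were tested with the quasi-likelihood test of edgeR 4.0.16 in R 4.3.3 (TMM factors, Benjamini-Hochberg adjustment over all genes, threshold 0.05), with library as a block between sets of cells. CPM are TMM-scaled and were computed from the counts, and levels differ slightly between comparisons because each has its own factors. Shares were compared by exact permutation tests. The genes named beyond the lists are up to 10 in each direction with the largest change among called genes that reach 20 CPM in the higher set and change the same way in every library (between conditions, with no overlap of groups), leaving out the genes of the rule, Tnc, mitochondrial, ribosomal and haemoglobin genes and unnamed gene models; a few genes of the lists and of this rule are not reported here. Doublets were left in, with an alternative that dropped the 3.9% of cells with the highest Scrublet scores. The edgeR script was tested on simulated data. Other alternatives were DESeq2 1.42.0, other filters, gates and depths, and leaving out libraries. Day 0 and day 3 libraries entered no comparison.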

Additional observations from a re-analysis of the deposited data

Results flagged for a closer look

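In groups of 4 libraries, 5 of 92 sets of values had one library far from the other 3 by Dixon's criterion, and chance gives about 1 in 20. Igf2 in members stood at 10.6 CPM in day 7 replicate 1 and at 6.13 to 6.21 CPM in the others. Adipocyte markers summed to 21.8 CPM in day 7 replicate 2 against 39.9 CPM in the other 3. With p7N3, Lgals1 (galectin-1) was at 7480 CPM in replicate 4 against 8656 to 9017 CPM, Schwann cell markers at 6.66 CPM in replicate 4 against 2.44 to 3.05 CPM, and keratinocyte markers at 13.9 CPM in replicate 3 against 20.6 to 21.4 CPM.

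Cells passing the same rule were also found in libraries that entered no comparison. Day 3 libraries held 12, 9 and 17 such cells, which were 0.610%, 0.421% and 1.01% of their cells. Of Pdgfra cells they were 5.19%, 2.51% and 11.3%. With the gate at equal depth the counts were 0, 0 and 2. The 4 day 0 libraries held 0, which allows shares of all cells of up to 0.299%, 0.525%, 0.270% and 0.342%, counting error only.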

How the results depend on the processing

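With p7N3, the count of called genes was 1, and it was 22 with DESeq2, 21 with no filter on low counts, 2 at no more than 10% mitochondrial UMIs, and 0 with at least 10 UMIs in every library, with replicates 1 to 3 only, with all 3 markers, with the gate thinned to 3000 UMIs, without the highest Scrublet scores, or with no condition on Pi16, Gzme and Tnmd. It ranged from 0 to 4 when 1 replicate was left out. Whether replicate numbers pair the day 7 and p7N3 libraries could not be settled from so few libraries. Same-numbered libraries had correlations of 0.274, −0.0718, −0.0952 and 0.0960, and differently numbered ones −0.269 to 0.196. With the replicate block the count was 8 with p7N3 and 25 at day 21. The day 21 count of 74 was 178 with no filter, 33 with at least 10 UMIs, 39 with the 12 libraries of 3 groups in 1 fit and 45 with the thinned gate, and 32 to 216 when 1 replicate was left out. At day 21, Col4a2 changed sign with all 3 markers (−0.69) and H19 with the thinned gate (1.43). Against other Pdgfra cells the count of 3073 was 1448 with at least 10 UMIs, 962 with the thinned gate and 1892 on separate random parts of the UMIs (2605 to 3134 when 1 replicate was left out). Against Pi16 cells 4210 became 1905 and 2765 under the first 2 of these (3756 to 4315). Against Gzme cells 1037 became 1630 with no filter and 300 with the thinned gate (786 to 1048). The causes were not tested.

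With all 3 markers the p7N3 difference in share was −0.0436 percentage points of all cells and −0.218 of Pdgfra cells, opposite in sign to the main values. Leaving out 1 replicate gave −0.243 to 0.922 and −1.31 to 2.89 with p7N3, and −3.78 to −2.78 and −12.7 to −9.52 at day 21. The day 21 comparison rests on 18 members in all.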
